A study of Mus musculus with 6 samples.

Results

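The CIDE, perilipin and FIT families and *G0s2* are lipid droplet genes, and 10 of them were looked up by gene symbol among the 24421 genes measured by RNA-seq in mouse liver: *Cidea*, *Cideb*, *Cidec*, *Plin2*, *Plin3*, *Plin4*, *Plin5*, *Fitm1*, *Fitm2* and *G0s2*. All 10 symbols were found, each once. The series holds liver mRNA of 6 C57BL/6 mice aged 21 weeks according to the labels. The study's text states a lower age than the labels do. It has 3 wild type (WT) mice and 3 PAI-1 heterozygous (*Pai-1*+/-) mice, which are deficient in every tissue and not in the liver alone. All were male according to the study's text, although the labels give the sex of the WT mice alone, and all ate standard chow without restriction. The heterozygous mice came from crosses of *Pai-1*-/- with WT mice, and the study calls the WT mice littermate controls.

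The study asked whether having less PAI-1 changes gene expression in the liver. For the lipid droplet genes that question could not be addressed here. The 6 columns of deposited counts are headed by bare numbers that match no sample label, so none could be assigned to a genotype, and the fold changes and p-values of the authors' own comparison were not taken over. The value that remains for each gene is the authors' mean normalized count, which averages the counts of both genotypes after correction for sequencing depth. It has no error or n here, and a gene present in only some of the mice and a gene at the same level in all of them can have the same mean. Every level below is therefore a description of WT and *Pai-1*+/- livers pooled, and it is not the level in either genotype. As the tissue was not separated into cells, more cells of a type and more RNA per cell cannot be told apart.

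A lipid droplet is a store of triglyceride and cholesteryl ester enclosed by a phospholipid monolayer, and hepatocytes fill with such droplets in hepatic steatosis. FIT proteins act in the endoplasmic reticulum, where droplets form. Perilipins coat the droplet surface and govern the access of lipases to it, CIDE proteins sit where droplets touch and pass lipid from the smaller to the larger one, and G0S2 inhibits adipose triglyceride lipase, the enzyme that opens triglyceride breakdown.

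All 10 genes were expressed in these livers. Their mean normalized counts ran from 286 for *Cidea* to 21481 for *Plin2*, each above the value of 10 under which a gene was set aside as low. Since a long transcript yields more reads than a short one, levels of different genes are compared below as the mean count per kb of annotated exon. On that scale the lipid droplet genes had a median of 988, against 94.6 for the 12499 genes above a mean count of 10 whose length was known. Each of the 10 lay above that median, although *Plin4* was not far from it, with 60.8% of genes lower. Together the 10 genes took 0.127% of all normalized counts.

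**Figure D1:**
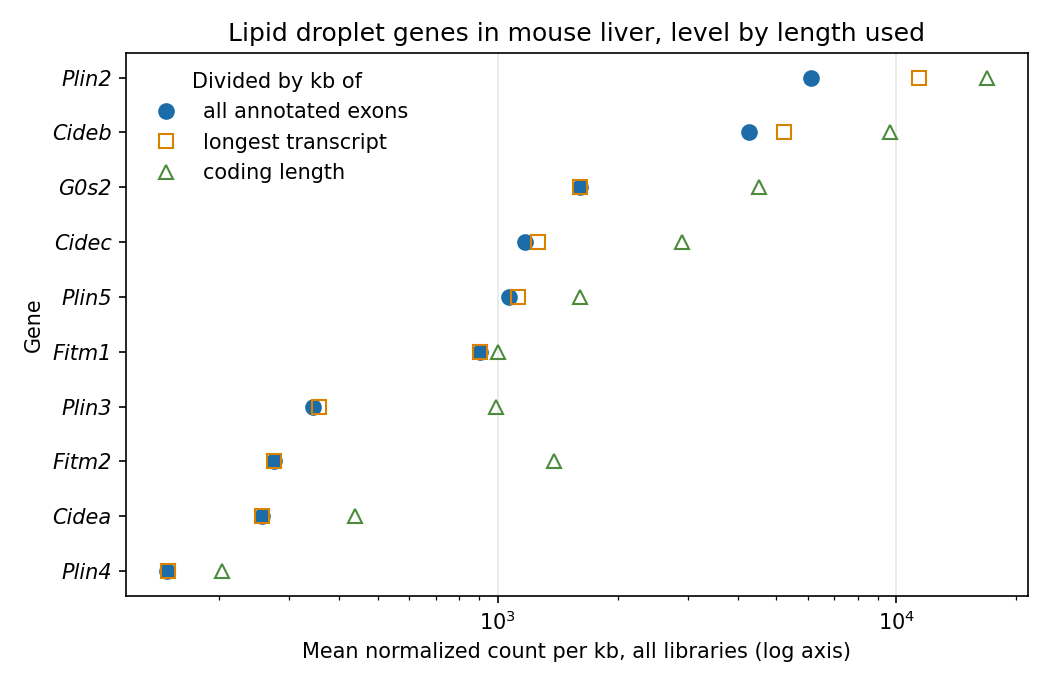
Mean normalized count per kb (horizontal log axis) of the 10 lipid droplet genes over all libraries of both genotypes, with circles for division by all annotated exons, squares for the longest transcript and triangles for the coding length. *Plin2* and *Cideb* lead and *Plin4* is last under each length, while *Fitm2* shifts most; no error bars exist because the values are the authors' means.

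Perilipins were led by *Plin2*. This gene encodes the ubiquitous droplet coat protein adipophilin, the main perilipin of hepatocytes. Its mean normalized count of 21481 ranked 185 among all genes, and its level of 6117 per kb exceeded that of 98.2% of the genes compared. *Plin5*, whose product links droplets to mitochondria in tissues that burn fat, had a mean normalized count of 2232 and a level of 1070 per kb. The level of *Plin2* was 5.72 times that of *Plin5*. *Plin3*, which encodes a cytosolic protein that moves onto nascent droplets, had a mean normalized count of 1302 and a level of 344 per kb, so that *Plin2* was 17.8 times higher. *Plin4* is known mainly from white adipose tissue and muscle and codes for a long protein built of repeats. Its mean normalized count of 857 came from 5777 exonic bases, and its level of 148 per kb was the lowest of the 10 genes. *Plin2* thus made up 79.7% of the summed level per kb of these 4 perilipins, *Plin5* 13.9%, *Plin3* 4.48% and *Plin4* 1.93%. The shares and ratios depend on which transcripts are counted as the gene. *Plin2* has 8 annotated transcripts, and when the longest alone gave the length, its level was 10.1 times that of *Plin5* and 31.9 times that of *Plin3*. The share of *Plin2* was then 87.5% and that of *Plin5* 8.64%. Per kb of coding length these shares were 85.7% and 8.18%.

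The perilipin of adipocytes, *Plin1*, which was not among the 10 genes, had a mean normalized count of 4.75 and was low.

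The CIDE family had a clear order in the mean. *Cideb*, the member known from liver, where it takes part in the lipidation of very low density lipoprotein, had a mean normalized count of 6339 and a level of 4260 per kb, higher than 97.5% of the genes compared. *Cidec*, whose product is Fsp27, is known from white adipose tissue, where it produces the large single droplet, and from fatty liver. Its mean normalized count was 2169 and its level 1169 per kb. *Cidea* (chr18:67343604-67367785, plus strand), known from brown adipose tissue, had a mean normalized count of 286 and a level of 257 per kb. *Cideb* was 3.65 times higher than *Cidec* and 16.6 times higher than *Cidea* on the scale per kb, and *Cidec* was 4.55 times higher than *Cidea*. *Cideb* accounted for 74.9% of the summed level of the family, *Cidec* for 20.6% and *Cidea* for 4.52%. Whether this order holds in each genotype was not tested.

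The level of *Cideb* carries an uncertainty of its own. Of its 1488 exonic bases, 1136, or 76.3%, are also exon of *Nop9* on the opposite strand, a gene with a mean normalized count of 700. The study does not say whether reads were counted by strand. Without strand, reads from the shared bases cannot be given to either gene.

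FIT genes ranked differently by different lengths. *Fitm1*, known from skeletal muscle and heart, had a mean normalized count of 879 over 971 exonic bases, or 906 per kb. *Fitm2*, the member found in most tissues, had a mean normalized count of 1089 over 3967 exonic bases, or 274 per kb. *Fitm1* was thus 3.30 times higher per kb of exon. The coding lengths of the 2 genes are much closer, at 876 and 786 bases, and per kb of coding length *Fitm1* stood at 1004 and *Fitm2* at 1385, the reverse order. Which of the 2 transcripts was more abundant therefore cannot be stated. *Fitm1* shares 109 exonic bases with *Gm15932* and *Fitm2* shares 227 with *2310001K24Rik*, both annotated as antisense genes.

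*G0s2*, the lipase inhibitor, had a mean normalized count of 1398 from only 871 exonic bases. Its level of 1605 per kb was the third of the 10 and exceeded that of 93.9% of the genes compared. The lipase that it inhibits is encoded by *Pnpla2*, which had a level of 1471 per kb. The activator of that lipase, *Abhd5*, had a level of 151 per kb. These comparisons changed with the length used. With the longest transcripts, *Pnpla2* stood at 1692, above *G0s2* at 1605, and *Abhd5* at 284. Per kb of coding length the 3 genes stood at 3046, 4525 and 851.

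In order of level per kb, the genes were *Plin2*, *Cideb*, *G0s2*, *Cidec*, *Plin5*, *Fitm1*, *Plin3*, *Fitm2*, *Cidea* and *Plin4*. No spread between mice could be set against the steps in this order. Per kb of exon, the smallest steps were from *Fitm2* to *Cidea* (ratio 1.07), from *Cidec* to *Plin5* (1.09) and from *Plin5* to *Fitm1* (1.18). Per kb of coding length these ratios were 3.15, 1.81 and 1.60, so the sizes of the steps also changed with the length. The largest step per kb of exon was that from *Cideb* to *G0s2*, a ratio of 2.65 that was 2.13 per kb of coding length. The places of *Fitm1*, *Plin3* and *Fitm2* depended on the length used. The step from *Fitm1* to *Plin3* was 2.63 per kb of exon and 1.01 per kb of coding length, and that from *Plin3* to *Fitm2* turned from 1.25 to 0.717, so the order among these 3 genes is not resolved.

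**Figure D2:**
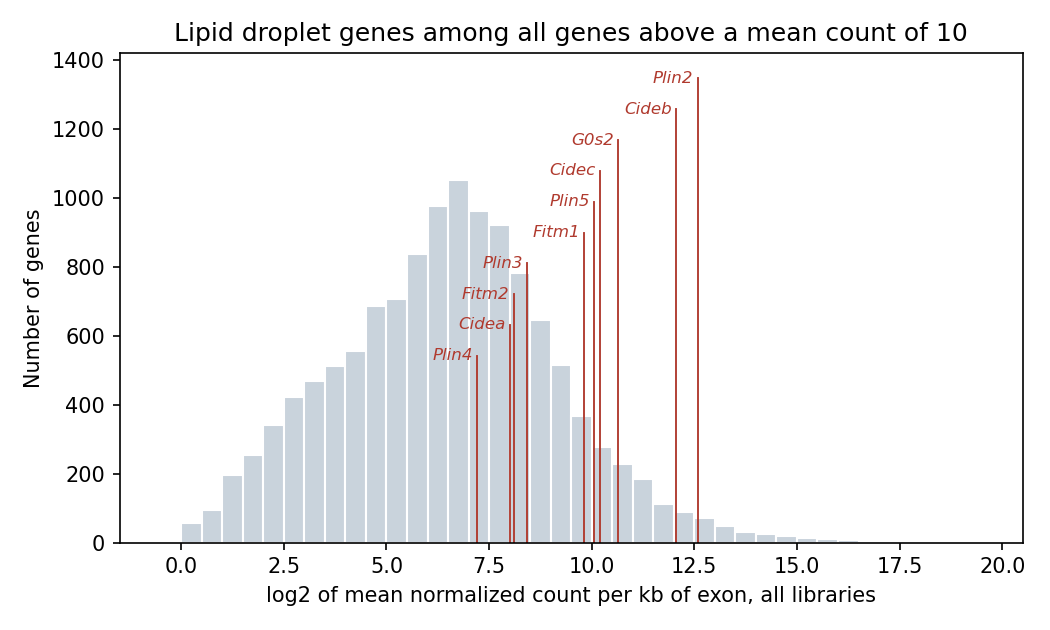
Histogram of the log2 mean normalized count per kb of exon (horizontal axis) for the 12499 genes above a mean count of 10 with a known length, with the number of genes on the vertical axis and a vertical line for each lipid droplet gene. All 10 lines lie to the right of the median level of 94.6 per kb, and *Plin2* and *Cideb* stand in the upper tail; line heights only separate the names.

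On the chromosomes, in coordinates of GRCm38 (mm10), 5 of the 10 genes were found on a chromosome that holds another member. *Plin4* (chr17:56100591-56109803), *Plin5* (chr17:56111601-56117596) and *Plin3* (chr17:56277476-56292873) lie in that order by coordinate, all on the minus strand. Only 1797 bases separate *Plin4* from *Plin5*, and 159879 separate *Plin5* from *Plin3*. Although *Plin4* and *Plin5* lie close together, the level per kb of *Plin5* was 7.21 times that of *Plin4*. *Fitm1* (chr14:55575617-55576954, plus strand) lies 177095 bases from *Cideb* (chr14:55754050-55758458, minus strand). Whether other genes lie within these gaps was not looked up. The others are *Cidec* (chr6:113424634-113435760), *Plin2* (chr4:86648386-86670060), *Fitm2* (chr2:163466379-163472629) and *G0s2* (chr1:193272161-193273217), all on the minus strand. The longest annotated transcripts have between 2 exons, in *Fitm1*, *Fitm2* and *G0s2*, and 9 exons, in *Plin4*.

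Several of these genes are textbook targets of the peroxisome proliferator-activated receptors (PPARs), which bind DNA together with RXR at repeats of the half-site AGGTCA. Of the PPAR genes, *Ppara* had a level of 2543 per kb and *Pparg* of 152, and their partner *Rxra* had a level of 3014. RefSeq promoter windows of 300 bases, from 250 before the annotated start site, were available for 9 of the 10 genes in 11 windows. *Cidea* had no window and was not searched. Searched on both strands, AGGTCA was found in 3 of these windows, 1 of *Plin2* and 2 of *Plin5*, against 16.3% of all 32851 windows. The full repeat, 2 half-sites in the same direction with 1 base between them, was found in none of the 11 and in 0.0396% of all windows. With a share that low, none would be expected in 11 windows of any genes, so this absence is uninformative. Only exact letters within the windows were searched. The E-box CACGTG occurred in *Plin2* alone, against 7.15% of all windows, and TATAAA in *Cideb* alone, against 13.6%. Matches and absences alike are descriptions of the letters and say nothing of binding. The windows of *Plin2*, the member with the highest level, and of *Plin5*, the other perilipin with a half-site, are shown from 5′ to 3′ on the minus strand of GRCm38.p6 with the matches in capitals. The *Plin2* window (chr4:86670010-86670309) has the half-site on its reverse strand, read here as TGACCT, and the E-box, whose first base is at -4 from the start site. The *Plin5* window (chr17:56117499-56117798) has the half-site at -170.
Plin2: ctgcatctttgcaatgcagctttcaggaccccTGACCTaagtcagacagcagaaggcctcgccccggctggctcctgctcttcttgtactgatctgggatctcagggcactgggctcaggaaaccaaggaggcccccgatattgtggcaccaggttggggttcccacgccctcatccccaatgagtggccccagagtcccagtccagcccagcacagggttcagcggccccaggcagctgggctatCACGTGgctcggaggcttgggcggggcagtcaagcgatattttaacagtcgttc
Plin5: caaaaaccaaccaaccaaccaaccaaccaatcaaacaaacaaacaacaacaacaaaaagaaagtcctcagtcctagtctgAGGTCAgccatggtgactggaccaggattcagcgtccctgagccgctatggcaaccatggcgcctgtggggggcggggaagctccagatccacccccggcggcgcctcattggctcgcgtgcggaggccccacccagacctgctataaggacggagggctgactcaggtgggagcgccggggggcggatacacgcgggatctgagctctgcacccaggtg

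Other lipid droplet genes served as a background for the 10. All 19 genes of this list were in the data, 18 of them above a mean count of 10, and 13 of the 19 were above the median level per kb of the genes compared. Their median level was 212 per kb, and they ranged from 1.02 for *Plin1* to 7062 for *Hsd17b13*. *Hsd17b13*, a droplet protein of hepatocytes, was the only gene of that list above *Plin2*, and it fell below it when the longest transcripts gave the lengths, at 8919 against 11378 per kb. *Hsd17b11*, its close relative, had a level of 2740 per kb. Among lipases, *Mgll*, which completes triglyceride breakdown, had a level of 2014 per kb, *Lipe*, the hormone-sensitive lipase of adipocytes, had 105, and *Pnpla3* had 7.93. *Hilpda*, another inhibitor of adipose triglyceride lipase, had a level of 63.6 per kb, below that of *G0s2*. *Bscl2*, which encodes seipin, a protein at the site of droplet formation, had 245, beside 274 for *Fitm2*. With the longest transcripts the 2 genes stood at 414 and 274, and per kb of coding length at 1089 and 1385. The remaining regulators listed for these genes were *Creb3l3* at 3642 per kb, *Srebf1* at 749 and *Ppargc1a* at 60.1.

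Since several members are best known from fat or muscle, marker genes of those tissues were read from the same values. The tissue itself carried the markers of liver: the 6 hepatocyte markers had levels from 13233 per kb for *Apob* to 920387 for *Alb*. Of the 7 adipocyte markers, 5 were at or under a mean normalized count of 10. *Adipoq*, the defining marker, had a mean normalized count of 7.87, *Lep* of 0.866, *Retn* of 1.90 and *Ucp1*, the marker of brown fat, of 0.173. The other two, *Cfd* at 79.2 and *Car3* at 28555, were above it, and *Car3* is also a gene of mouse hepatocytes. *Cidec*, *Cidea* and *Plin4* had levels of 1169, 257 and 148 per kb. On that scale *Adipoq* stood at 5.70, *Cfd* at 85.9 and *Car3* at 9967. The 4 muscle markers (*Acta1*, *Ckm*, *Myh4* and *Mb*) had mean normalized counts of at most 3.24. Their levels were at most 2.11 per kb, beside 906 for *Fitm1*. From which tissue or cell type the RNA of these members came was not tested.

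Markers of the non-parenchymal cells of the liver were all above a mean count of 10. Levels of the 5 Kupffer cell markers ran from 79.6 to 1166 per kb, of the 5 stellate cell markers from 23.7 to 712 and of the 5 endothelial markers from 70.1 to 372. *Plin2*, *Cideb* and *G0s2* exceeded each of these markers, *Cidec* at 1169 was level with the highest of them, and the other members lay within their range. Stellate cells hold retinyl ester droplets of their own, and the part of each cell type in the levels of the lipid droplet genes was not tested.

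**Figure D3:**
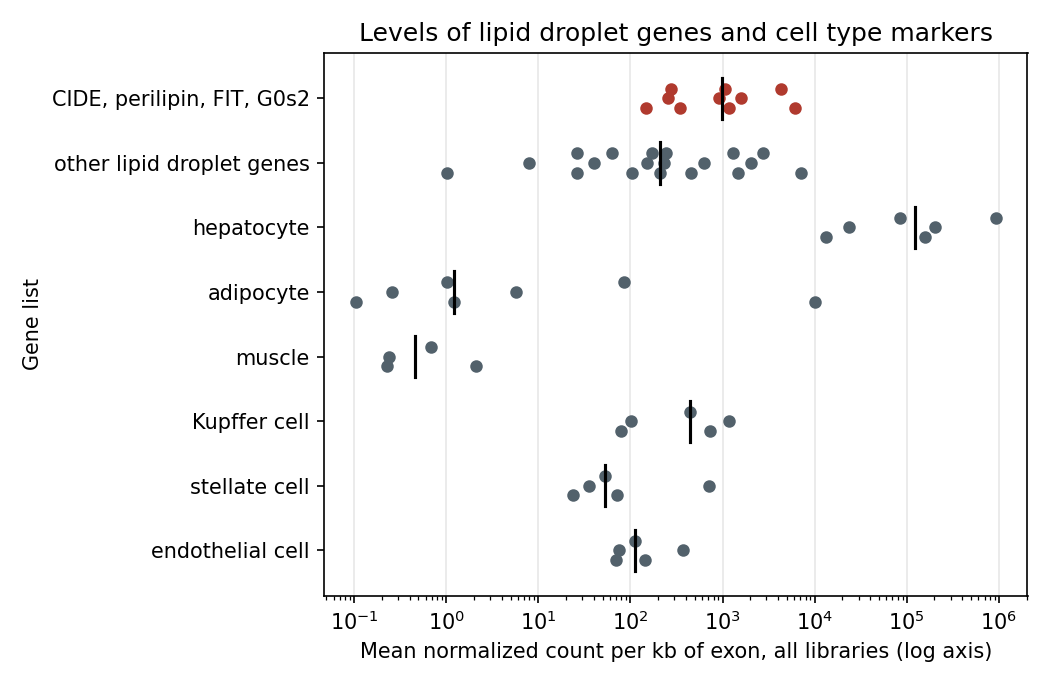
Mean normalized count per kb of exon (horizontal log axis) for the 10 lipid droplet genes (red) and for the other lipid droplet genes and cell type markers (grey), 1 point a gene and a black bar at the median of each list. On this scale the lipid droplet genes span 148 to 6117, below all hepatocyte markers and above all muscle markers. Per kb of coding length, which is not drawn, *Plin2* stood at 16848.1, above the hepatocyte marker *Apob* at 13643.5. Of 7 adipocyte markers, 5 are under 10 on the count scale and per kb.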

How the data were processed

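Hepatic mRNA libraries (KAPA mRNA HyperPrep) were sequenced as single-end reads. The authors aligned them to mm10 with STAR and ran DESeq2 in the RNA Express application. Versions, annotation and strand setting are not given in the sources used here. The signal used is the authors' deposited baseMean, in which each library's count was scaled by its size factor and then averaged across both genotypes. It sums to 30045982 over 24421 genes, of which 12971 exceeded 10. The 6 columns of counts match no label and were not used, so the depth of each library, values per mouse, errors and the planned test between genotypes are not given. The authors' fold changes, standard errors, test statistics and p-values were not used.

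Means were divided by kb of the union of exons in GENCODE M21, matched by symbol (96.4% of genes above 10). Python 3.11.15, pandas 2.3.3, NumPy 2.4.6 and Matplotlib 3.10.9 were used. The functions for exon length, overlap and percentile were tested on simulated data, and the other steps were not. The 10 members were given by symbol and all are named. The members and the other lists were chosen with earlier results of these data known, and the promoter motifs after the levels were seen. *Spart* and *Ldaf1* were found under older symbols. Some results are not reported here.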

Additional observations from a re-analysis of the deposited data

How the results depend on the processing

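Of the 10 lipid droplet genes, 10 lay above the median level of the genes compared when levels were divided by the union of exons or the longest transcript, and when all genes above 0 were included. The number was 9 with the coding length, where *Plin4*, the lowest of the 10, fell below the median. It was also 9 without division by length, where *Cidea*, with a mean normalized count of 286, was below the median of 440. With the longest transcript, all 10 genes kept their place in the order. With the coding length, chosen after seeing the data, 7 kept it and 3 moved by at most 2 places, and without division by length 3 kept it and 7 moved by at most 2 places. The coding length came from GENCODE, and the planned version from RefSeq proteins was not run. No paired analysis was possible because no column of counts matches a numbered sample. For the same reason the planned fits of the counts, with and without a filter, and those leaving out a library were not run. The mean hides the spread between mice and between genotypes, and gives neither counting error nor depth per library.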
